A study of Mus musculus with 16 samples.

Results

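Spinal cords of mice that carry unchanged human profilin 1 were compared between young and later adulthood, as a measure of ageing without the mutant protein. The comparison set the wild-type old mice (WO1 to WO5) against the wild-type young mice (WY1 to WY3), chosen by genotype and age alone, which is 8 of the 16 mice of the series. WY mice were 50 days old, WO1 to WO3 were 190 days old and WO4 and WO5 were 294 days old. All were male C57BL/6N-Tg(Prnp-PFN1)850Kiaei/J mice, in which the mouse prion protein promoter drives human profilin 1. The other 8 mice, used here only as a second comparison of ages, were males of the Tg(Prnp-PFN1*G118V)838Kiaei/J line on C57BL/6N, in which the same promoter drives profilin 1 with the G118V change. Of these, 3 were 50 days old and without symptoms (MY), and 5 were at the end stage of disease at 175 to 245 days (MO). Every group overexpressed human profilin 1 and no mouse lacked a transgene, so ageing of a non-transgenic cord was not measured.

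One library per mouse was made from polyadenylated RNA of the cord, and the young mice, WO1 to WO3 and MO1 to MO3 belonged to library batch 1. WO4 and WO5 belonged to batch 2, so that an age of 294 days and batch 2 cannot be told apart among the WO mice. Values are the authors' log2(1 + FPKM) after correction for batch, where FPKM is fragments per kilobase of transcript, scaled to library size. The number of fragments behind a gene is not in the table, so no counting error could be given, and this scale understates the ratio between groups for genes near an FPKM of 1 or lower.

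The cord is rich in white matter, where oligodendrocytes wrap axons in myelin, a membrane stack of a few abundant proteins, cholesterol and sphingolipids. In mice, wrapping is most active in the first weeks of life and continues at a lower rate in adults, when precursor cells still divide, commit and mature. Cholesterol of the cord is made within it, since the blood-brain barrier keeps lipoprotein cholesterol out, and myelinating cells are heavy users of that pathway.

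Each of the 18167 genes was tested with limma, and a gene is said to have risen or fallen, or to be called, at a Benjamini-Hochberg FDR of at most 0.05 with a change of at least 1.5-fold (0.585 on the log2 scale). By that rule 37 genes fell (0.204% of genes tested) and 9 rose (0.0495%), 46 in all (0.253%). The FDR alone was passed by 204 genes (1.12%), of which 162 were lower (0.892%) and 42 higher (0.231%) in WO mice. Groups that did not overlap were found for 1756 genes (9.67%), the 46 called genes among them. Fitted with WO1 to WO3 as the only older mice, all of batch 1 and 190 days old, 73 genes were called (0.402%). These included 39 of the 46. All 46 kept their direction, as they had to, since WO1 to WO3 are part of a group that did not overlap with the WY mice there. The median change over all genes was 0.00176.

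The number of calls rested on few mice. It was 7 without WY3 (2 higher, 5 lower), 23 without WY1 (7 and 16), 26 without WO2 (3 and 23), 27 without WO3 (4 and 23), 30 without WY2 (5 and 25) and 31 without WO1 (4 and 27). Without WO4 it was 64 (7 and 57) and without WO5 38 (9 and 29). The number past the FDR alone was 9 without WY3, 40 without WY1, 55 without WO2, 59 without WO3, 63 without WO1, 69 without WY2, 97 without WO5 and 182 without WO4. Leaving out WY3 removed 39 of the 46 calls. The direction was kept in 46 of 46 genes whichever mouse was left out. It had to be, since the groups did not overlap in these genes, so this does not measure stability. The calls of 9630013A20Rik, Cldn11, Etnppl, Mir8103, Srd5a1 and Tspan2, 6 genes, were made in all 8 fits without 1 mouse. For Mir8103 this is no sign of stability, since all WY mice shared its lowest value, a floor described below. Of the 46, 24 were called in at least 5 of the 8 fits, and Ankrd60 and Hacd1 in none.

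Other settings removed calls as well. Of the 46, 39 were called with batch 1 mice only, where Ankrd60, Cd44, Cd9, Gpx8, Hacd1, Pbk and Pdlim2 were not. With batch as a term Ankrd60, Cd9, Hacd1 and Pbk were lost, and after quantile normalization Aqp4, Bfsp2, Hacd1, Hmgcs1, Idi1 and Plekha1. With all 4 groups in 1 fit 31 were kept, and those lost were Bfsp2, Cd9, Etnppl, Fcrls, Gal3st1, Gamt, Hacd1, Idi1, Klk6, Mir8103, Msmo1, Opalin, Pbk, Pllp and Ugt8a. A pseudocount of 0.1 ended the calls of Ankrd60, Aqp4, Bmp4, Cdkn1c, Fcrls, Fmo2, Hacd1, Hmgcs1, Igsf1 and Pdlim2. The replicate block ended those of Ankrd60, Aqp4, Bfsp2, Bmp4, Cd44, Cd9, Etnppl, Fcrls, Gpx8, Hacd1, Hebp1, Pbk and Plat. With batch as a term or the replicate block the change is that of the batch 1 mice, so calls in these settings and within batch 1 are not separate evidence. Under treat, which tests against a fold change, only 9630013A20Rik, Cldn11 and Mir8103 were called, the last with all WY mice at its floor. Below, a call kept or lost without a mouse refers to the 8 fits without 1 mouse only, and a range of changes to those fits and the other settings together.

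**Figure D1:**
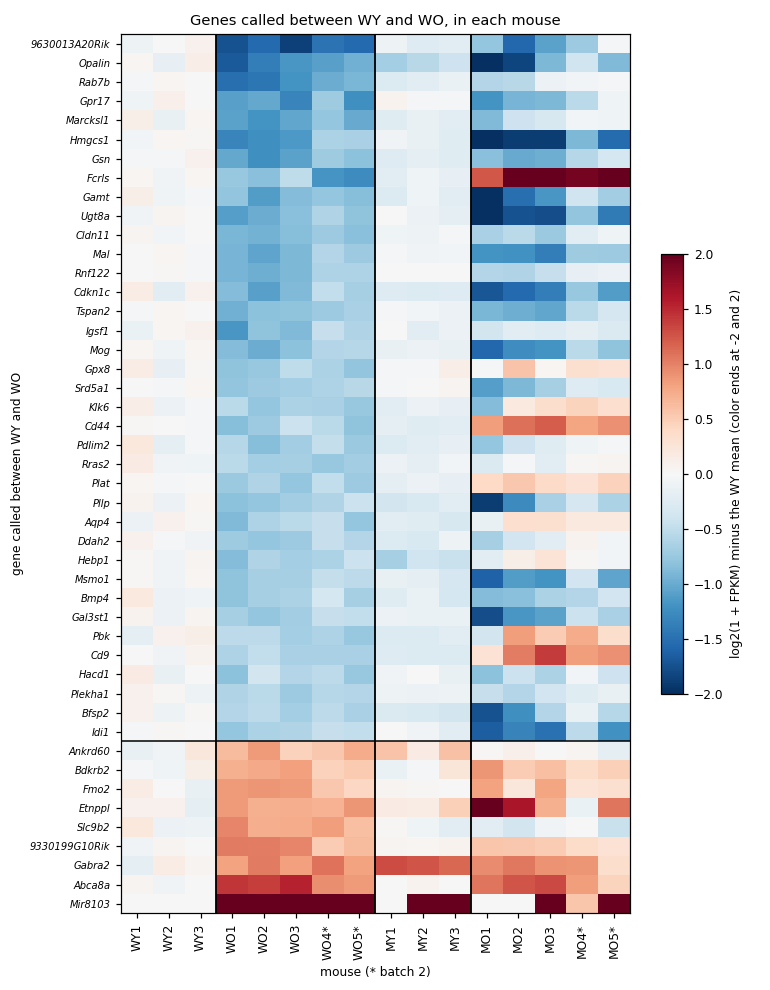
Each row is 1 of the 46 called genes and each column 1 of the 16 mice, coloured by log2(1 + FPKM) minus the mean of the WY mice of that gene, with colour ends at -2 and 2 and an asterisk at mice of batch 2. The 37 lower genes are below the WY mice in WO1 to WO5 alike, and several are above them in MO mice.

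Lists of the oligodendrocyte lineage held 21 of the 37 genes that fell, and genes of the myelin sheath are given first. The members and lists were chosen with earlier results of these data known. The share and the counts per list are therefore a description and no test. Of 20 structural myelin genes, all measured, 6 fell, 11 passed the FDR, all lower, and 19 had a lower mean in WO mice (18 after quantile normalization). Their median change was -0.469, and -0.55 with the 190-day mice alone. Fewer oligodendrocytes and less RNA per oligodendrocyte cannot be told apart in whole cord. Cldn11 (chr3:31149920-31164324 on GRCm38), which encodes the claudin that seals the layers of central myelin, was at 8.99, 8.88 and 8.94 in WY1 to WY3. In WO1 to WO5 it was at 8.03, 7.99, 8.08, 8.20 and 8.10. The group means were 8.94 ± 0.06 (SD, n = 3) and 8.08 ± 0.08 (SD, n = 5), a change of -0.86 (SE 0.06, FDR 0.00112). Within each group the mice lay close together, and the highest WO mouse was far below the lowest WY mouse. Opalin (chr19:41061710-41077113), which encodes a sialylated membrane protein of central myelin, was at 6.57, 6.36 and 6.67 in the young mice. It was at 4.84, 5.15, 5.37, 5.44 and 5.57 in the older ones, a change of -1.26 (FDR 0.0145). The groups were well apart, and the older mice were more spread, with WO1 the lowest. Mal, whose product sorts proteins to the myelin membrane, was at 8.83, 8.86 and 8.79 in WY mice. In WO mice it was at 7.90, 7.76, 7.93, 8.25 and 8.10, a change of -0.84 (FDR 0.0129), and the 294-day mice were nearest to the young ones.

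Mog, an antigen of the outer myelin surface, fell by 0.77, Tspan2, a tetraspanin of myelin, by 0.79, and Pllp, the proteolipid plasmolipin, by 0.67. Mag, the adhesion protein that faces the axon, changed by -0.36 and Cnp, the cyclic nucleotide phosphodiesterase of the inner channels, by -0.53. Both passed the FDR (0.0239 and 0.0418) under the fold threshold, as did the membrane proteins Tmem88b (-0.43) and Tmem125 (-0.48). Cnp was called within batch 1 (-0.65, FDR 0.0124), with batch as a term and with the replicate block. Mobp, a small basic myelin protein, was at -0.22 with overlapping groups (FDR 0.296). The exception in sign was Hapln2, which links the matrix at nodes of Ranvier, at 0.13. Without WY3 the calls of Opalin, Mal, Mog and Pllp were lost, and without WY1 these same 4. Mal and Mog were also not called without WY2, Mog without WO1 or WO3, and Pllp without WO2 or WO3. Over these fits and the other settings, the change ranged from -1.41 to -1.15 for Opalin, from -0.96 to -0.78 for Mal, from -0.90 to -0.71 for Mog and from -0.77 to -0.63 for Pllp.

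The most abundant transcript of the list did not pass with all mice. Mbp, the basic protein that compacts the sheath, was at 13.23, 12.92 and 12.999 in WY mice and at 12.61, 12.49, 12.42, 5.36 and 14.22 in WO mice. WO1 to WO3 were below every young mouse, WO4 was far below all others and WO5 above all others. The change was -1.63 (FDR 0.776), and -0.54 (FDR 0.0743) within batch 1. Without WO4 it was -0.12, and it was called in no setting. In the mutant mice of batch 2, MO4 and MO5, Mbp was at 14.11 and 14.14, above the 12.24 of the highest MO mouse of batch 1, and the part of batch in these values was not tested. The summed FPKM of the 20 structural genes, most of it from Mbp, was 18104, 15800 and 16147 in WY mice. In WO mice it was 11268, 10501, 10571, 6429 and 25054, where the last 2 follow the Mbp values of WO4 and WO5. The mean over the 20 genes was 7.73, 7.64 and 7.68 in WY mice and 7.12, 7.09, 7.14, 6.93 and 7.38 in WO mice, with no overlap. Mbp enters these means too, so the 6.93 of WO4 includes its Mbp value of 5.36. The defining markers Mbp and Mag were far from 0 in all 8 mice.

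**Figure D2:**
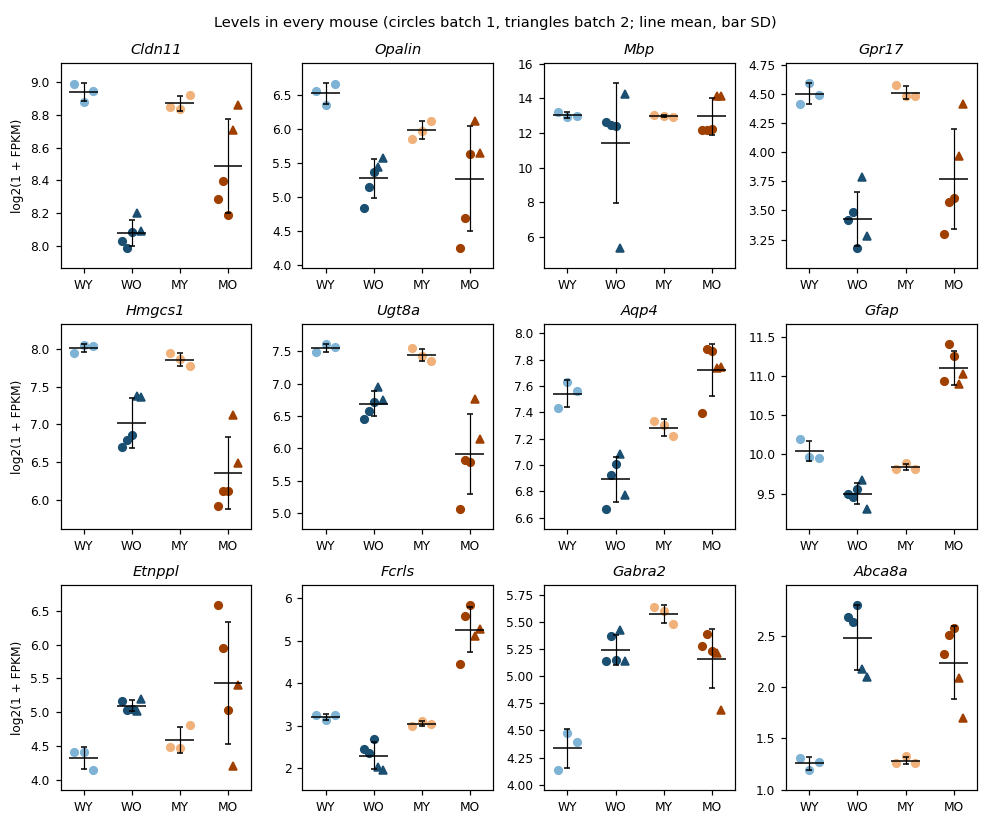
The log2(1 + FPKM) of 12 genes is plotted for each mouse by group, with circles for batch 1, triangles for batch 2 and bars for the mean and SD. Cldn11, Opalin, Gpr17, Hmgcs1, Ugt8a, Aqp4 and Fcrls are lower and Gabra2 and Abca8a higher in WO than in WY mice, whereas Mbp is split by WO4 and WO5.

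Lipids of the sheath were represented by enzymes of sphingolipid synthesis, of which 2 of 21 fell and 4 passed the FDR, with a median of -0.14. Ugt8a (chr3:125865271-125938619), which makes galactosylceramide, was at 7.49, 7.61 and 7.57 in WY mice. It was at 6.45, 6.57, 6.72, 6.95 and 6.75 in WO mice, a change of -0.87 (SE 0.10, FDR 0.0129) with every older mouse below every young one. Gal3st1, the sulfotransferase that turns galactosylceramide into sulfatide, fell by 0.62. Cers2 (-0.37), the ceramide synthase for very long chains, and Elovl1 (-0.51), which elongates those chains, passed the FDR under the fold threshold. Fa2h, which hydroxylates the fatty acids, was at -0.61 with an FDR of 0.0501 and was called within batch 1 at -0.76. The call of Ugt8a was lost without WY2 or WY3, with changes over all settings from -0.97 to -0.81. That of Gal3st1 was lost without WO1, WO2, WO3, WY1 or WY3, with changes from -0.71 to -0.58.

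Among 30 further genes of mature oligodendrocytes, 7 fell, 8 passed the FDR and 27 were lower, with a median of -0.204. Gsn, whose product gelsolin severs actin filaments, was at 7.64, 7.63 and 7.76 in WY mice and at 6.65, 6.44, 6.60, 6.97 and 6.86 in WO mice, a change of -0.97 (FDR 0.0129). The older mice were more spread than the young ones, and all lay below them. Rnf122, a membrane ubiquitin ligase, fell by 0.81, Srd5a1, which reduces steroids such as progesterone, by 0.67 and the secreted protease Klk6 by 0.67. The cytoskeletal adaptor Pdlim2, the heme-binding Hebp1 and the filament protein Bfsp2 fell by 0.67, 0.64 and 0.59. Aspa, which releases acetate from N-acetylaspartate, passed the FDR at -0.40. The abundant members Plekhb1, Trf and Apod, for a membrane-binding protein, transferrin and a lipid carrier, were at -0.03, -0.18 and -0.14 with overlapping groups. Without WY3 the call was kept for Srd5a1 and lost for the other 6. Gsn (from -1.11 to -0.91) and Klk6 (from -0.73 to -0.60) lost it in no other of the 8 fits, and Rnf122 (from -1.04 to -0.76) also without WY1. Klk6 lost it with all 4 groups in 1 fit as well. Among the 8 fits Hebp1 was called only without WO1, WO4 or WO5, Bfsp2 only without WO1, WO2, WO4 or WY2, and Pdlim2 only without WO4 or WY2.

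In the same lineage, creatine synthesis was represented by Gamt, the methyltransferase of its last step, which oligodendrocytes express strongly. It was at 5.31, 5.09 and 5.16 in WY mice and at 4.40, 4.07, 4.32, 4.41 and 4.34 in WO mice, a change of -0.88 (FDR 0.0086). Every older mouse was lower. Among the 8 fits without 1 mouse the call was lost in that without WY3, and it was also lost with all 4 groups in 1 fit. The other 4 genes of the list did not pass the FDR, with Gatm, the enzyme of the first step, at -0.07, the transporter Slc6a8 at -0.02, and the kinases Ckb and Ckmt1 at 0.03 and 0.16.

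Committed and newly formed oligodendrocytes, the stage between precursor and myelinating cell, formed a list in which every measured gene was lower, also after quantile normalization or with a pseudocount of 0.1. Of its 22 genes 6 fell and 8 passed the FDR, with a median of -0.393 and -0.457 within batch 1. The long non-coding RNA 9630013A20Rik (chr14:84458639-84476424) was at 2.66, 2.76 and 2.85 in WY mice. In WO mice it was at 1.02, 1.202, 0.89, 1.28 and 1.21, a change of -1.64 (SE 0.09, FDR 0.000968), the largest decrease among the 46. All older mice were more than 1 unit below all young ones. Gpr17 (chr18:31942997-31949636), a receptor that marks committed cells and holds back their maturation, was at 4.41, 4.59 and 4.49 in young mice. It was at 3.42, 3.48, 3.18, 3.79 and 3.28 in older mice, a change of -1.07 (FDR 0.0129), with WO4 the nearest to the young group. Marcksl1, an actin-binding membrane protein, was at 6.54, 6.28 and 6.47 in WY mice. At 5.37, 5.24, 5.39, 5.66 and 5.42 in WO mice, it changed by -1.01 (FDR 0.0086), again without overlap.

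Bmp4, a secreted inhibitor of oligodendrocyte maturation, fell by 0.62, the small GTPase Rras2 by 0.67 and the tetraspanin Cd9 by 0.61. Fyn (-0.36), a kinase needed to start wrapping, and the deacetylase Sirt2 (-0.43) passed the FDR alone. The smallest change of the 22 was that of Rnd2, a GTPase also found in neurons, at -0.06. The calls of Gpr17, Marcksl1, Rras2 and Cd9 were lost in 1 of the 8 fits, that without WY3, with changes from -1.16 to -1.01, from -1.10 to -0.96, from -0.85 to -0.59 and from -0.65 to -0.58 over all settings. Within batch 1, Cd9 was at -0.58, just under the fold threshold, and 4 other settings ended its call too. Among the 8 fits the call of Bmp4 was kept in that without WO4 alone, and within batch 1 it was made, with changes from -1.08 to -0.52. 9630013A20Rik lies opposite Pcdh17, and although the libraries were stranded, whether reads were counted by strand is not stated. The mean over the 22 genes was 4.33, 4.29 and 4.28 in WY mice and 3.80, 3.76, 3.75, 3.92 and 3.87 in WO mice. Their summed FPKM, with Rnd2 the most abundant, was 1261, 1172 and 1192 against 1002, 912.3, 927.4, 1018 and 1005.

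Precursors divide and feed this stage. Of their 20 genes limma called 0, against 8 lower at an unadjusted p below 0.05, 1 passed the FDR and the median was -0.108. That gene was C1ql1 (-0.57, FDR 0.0408), a secreted ligand made by precursors, which was called with batch as a term, without WO4 and without WY2. With batch 1 mice only C1ql1 did not pass the FDR (-0.61, FDR 0.0745). The defining markers Pdgfra, the growth factor receptor, and Cspg4 and Ptprz1, proteoglycans of the surface, were at -0.18, -0.01 and -0.07 and overlapped between groups. The mean over the list was 2.81, 2.91 and 2.92 in WY mice. In WO mice it was 2.66, 2.75, 2.73, 2.75 and 2.75, all below the young ones. Of 18 transcription factors of the lineage limma put 0 past the FDR, against 3 at an unadjusted p below 0.05, with a median of -0.136, where Olig1 was at -0.26, Sox10 at -0.16 and Myrf, which switches on myelin genes, at 0.05. An unadjusted p below 0.05 was found for 2447 of all genes.

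In cholesterol synthesis the genes that fell belong to early and later steps. Of 26 genes 3 fell and 4 passed the FDR, 24 had a lower mean (24 also after quantile normalization) and 19 did not overlap, with a median of -0.384. Hmgcs1 (chr13:119690379-119708260), which makes the precursor of mevalonate, was at 7.96, 8.05 and 8.04 in WY mice. It was at 6.70, 6.79, 6.86, 7.38 and 7.36 in WO mice, a change of -0.998 (SE 0.17, FDR 0.0412). The 190-day mice were lowest, with a mean of 6.78, and the 294-day mice lay between them and the young, at 7.37. Msmo1 (chr8:64718139-64733792), a sterol demethylase, was at 6.90, 6.79 and 6.91 in young mice and at 6.07, 6.20, 6.20, 6.38 and 6.34 in older mice, a change of -0.63 (FDR 0.0129). Idi1 (chr13:8885501-8892451), which isomerises the isoprene unit, was at 6.10, 6.15 and 6.14 in WY mice and at 5.36, 5.49, 5.52, 5.67 and 5.64 in WO mice, a change of -0.59 (FDR 0.0132). In both, WO1 was lowest and no mouse overlapped with the other group. Cyp51, the demethylase that acts on lanosterol, passed the FDR at -0.55.

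Within batch 1 the list had 10 called genes, all lower, with a median of -0.468. Besides the 3 and Cyp51 these included Mvd (-0.90) and the later enzymes Sqle (-0.71), Lss (-0.74), Sc5d (-0.60) and Dhcr7 (-0.59). The call of Hmgcs1 was made without WO4 or WO5 and lost without any of the 6 other mice, with changes from -1.23 to -0.92 over all settings. Msmo1 was not called without WY1 or WY3 (changes from -0.71 to -0.59), and Idi1 not without WO1, WO2, WY1, WY2 or WY3 (from -0.67 to -0.55). Srebf2, the factor that drives the pathway, was at -0.04 and its retention protein Insig1 at -0.22, and neither passed the FDR. In fatty acid synthesis 1 of 22 genes fell, Hacd1 (-0.61), a dehydratase of chain elongation, and the median was -0.121. Its call was lost without any 1 of the 8 mice, with changes from -0.68 to -0.52. Among 19 genes of lipid export and uptake limma called 0, against 6 at an unadjusted p below 0.05. Past the FDR were 3, all lower, for the sterol carrier Npc2 (-0.45), the acyltransferase Lcat (-0.57) and the fatty acid carrier Fabp5 (-0.48). Within batch 1 Npc2 (FDR 0.0619) and Fabp5 (FDR 0.144) did not pass. Lcat was called within batch 1 (-0.62, FDR 0.0167), with batch as a term, with the replicate block and without WO4. The list's median was 0.097.

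The promoters of the 3 called cholesterol genes are printed because these genes moved together and the pathway is known for shared control through sterol regulatory elements and NF-Y boxes. RefSeq promoters on GRCm38.p6, 250 bases before to 50 after each start, were found for 18 of the 26 genes (22 promoters). Searched on both strands, the NF-Y letters CCAAT were in 16 of these 22 (72.7%) and in 37.4% of all 32851 promoters of the table. The sterol element letters TCACNCCAC were in 1 of 22 (4.55%), that of Hmgcs1, and in 1.24% of all. Capitals mark these letters or their reverse complement, and a match describes the sequence only. Hmgcs1 (chr13:119690101-119690400, plus strand) held 1 sterol element and 4 NF-Y boxes, Idi1 (chr13:8885356-8885655, plus strand) 2 NF-Y boxes and Msmo1 (chr8:64733529-64733828, minus strand) 3.
Hmgcs1: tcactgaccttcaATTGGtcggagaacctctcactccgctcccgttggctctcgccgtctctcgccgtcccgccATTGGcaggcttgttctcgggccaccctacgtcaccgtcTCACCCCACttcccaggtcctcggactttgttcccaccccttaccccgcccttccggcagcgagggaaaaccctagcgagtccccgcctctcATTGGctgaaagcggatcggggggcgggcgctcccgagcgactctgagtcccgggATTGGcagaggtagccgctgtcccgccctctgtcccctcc
Idi1: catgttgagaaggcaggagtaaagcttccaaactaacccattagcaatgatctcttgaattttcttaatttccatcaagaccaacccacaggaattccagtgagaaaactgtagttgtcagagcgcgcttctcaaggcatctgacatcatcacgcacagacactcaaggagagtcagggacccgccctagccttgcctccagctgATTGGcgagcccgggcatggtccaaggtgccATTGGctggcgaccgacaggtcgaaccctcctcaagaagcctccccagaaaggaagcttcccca
Msmo1: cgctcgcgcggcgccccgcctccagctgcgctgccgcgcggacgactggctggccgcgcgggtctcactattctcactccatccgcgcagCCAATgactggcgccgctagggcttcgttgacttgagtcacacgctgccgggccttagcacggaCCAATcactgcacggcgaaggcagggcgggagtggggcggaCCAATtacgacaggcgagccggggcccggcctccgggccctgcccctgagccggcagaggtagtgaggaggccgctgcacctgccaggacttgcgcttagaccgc

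Most astrocyte genes did not pass the FDR. Of 30 genes for astrocyte homeostasis 1 fell and 1 rose, with a median of -0.039. Aqp4 (chr18:15389496-15410982), the water channel of astrocyte endfeet, was at 7.43, 7.63 and 7.56 in WY mice and at 6.66, 6.93, 7.01, 7.08 and 6.77 in WO mice, a change of -0.65 (FDR 0.0281) without overlap. Etnppl (chr3:130617448-130637521), an enzyme that breaks down phosphoethanolamine in astrocytes, was at 4.41, 4.41 and 4.14 in young mice. At 5.17, 5.04, 5.05, 5.01 and 5.20 in older mice it changed by 0.77 (FDR 0.00871), with every older mouse above every young one. Its call was lost with all 4 groups in 1 fit and with the replicate block. The abundant members Aldoc and Glul, for a glycolytic enzyme and glutamine synthetase, were at 0.08 and 0.17 and did not pass. Among 25 genes of reactive astrocytes limma found 0 that rose, against 1 higher at an unadjusted p below 0.05, and 2 that fell, the hyaluronan receptor Cd44 (-0.67) and the peroxidase Gpx8 (-0.70). The list's median was -0.075. Gfap, the filament that marks reactive astrocytes, was at 10.19, 9.97 and 9.96 in WY mice. It was at 9.50, 9.46, 9.56, 9.67 and 9.30 in WO mice, lower in all 5, with a change of -0.54 (FDR 0.0345), which is under the fold threshold. Gfap was called without WO4, passed the FDR within batch 1 (0.0372) and did not with batch as a term (0.059). Tnc, an extracellular matrix protein of astrocytes and precursors, likewise passed only the FDR, at -0.53 (FDR 0.0086), and was called with a pseudocount of 0.1. Among other markers of reactivity, the filament Vim and the protease inhibitor Serpina3n were at -0.24 and -0.08 and did not pass, with -0.05 and 0.21 within batch 1. Aqp4 was called only with WO1 or WO4 left out among the fits without 1 mouse, with changes from -0.71 to -0.60. Cd44 was lost without WO1, WO2, WO5 or any young mouse (from -0.80 to -0.62) and Gpx8 without WO2, WY1 or WY3 (from -0.83 to -0.62). Within batch 1, Cd44 and Gpx8 were at -0.67 and -0.69 with an FDR of 0.0587 and 0.0551.

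In the microglial lists 2 genes fell. Rab7b, a GTPase of the endosome, was at 2.72, 2.80 and 2.77 in WY mice. It was at 1.26, 1.32, 1.56, 1.78 and 1.85 in WO mice, a change of -1.21 (SE 0.14, FDR 0.0127), with the 294-day mice nearer to the young ones. Its pattern was not that of its list, as its change in mutant mice was -0.06 and the median of the 19 pan-microglial genes there 1.885. Fcrls, a scavenger receptor of resident microglia, was at 3.25, 3.14 and 3.25 in young mice. At 2.46, 2.38, 2.70, 2.02 and 1.96 in older mice it changed by -0.91 (FDR 0.0461), and here the 294-day mice were lowest. The other 17 of 18 genes of homeostatic microglia and 18 of 19 of the pan-microglial list did not pass the FDR, and the medians were 0.038 and 0.016. The defining homeostatic markers, the nucleotide receptors P2ry12 and P2ry13 and the membrane protein Tmem119, were at -0.08, -0.14 and 0.14 with overlapping groups. Csf1r and Cx3cr1, receptors for a growth factor and a chemokine, were at 0.02 and -0.11. The call of Rab7b was lost without WY3 (changes from -1.55 to -1.14), and that of Fcrls was made in 1 of the 8 fits, that without WO3, and within batch 1 (changes from -1.06 to -0.70).

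Microglial lists are given for each older age, and the difference between these ages was not tested. The pan-microglial median change was 0.111 at 190 days and -0.338 at 294 days, and that of 22 genes of disease-associated microglia 0.036 and -0.391. The summed FPKM of the 19 pan-microglial genes, with the protease Ctss the most abundant, was 356.7, 293.4 and 346.5 in WY mice. It was 384.8, 402.3 and 438.3 in WO1 to WO3, above all young mice, and 252.6 and 250.1 in WO4 and WO5, below them. C1qb, a subunit of complement C1q, was at 5.88, 5.49 and 5.71 in WY mice and at 6.06, 5.94, 6.22, 5.40 and 5.31 in WO mice, with the same order. Medians were lower at 294 than at 190 days in other lists too, with -0.015 and -0.316 at 190 and 294 days for reactive astrocytes, 0.105 and -0.181 for interferon response and class I, and 0.073 and -0.194 for ribosomal proteins. Age and batch cannot be told apart here. Of the disease-associated genes limma put 0 past the FDR with all mice, against 3 lower at an unadjusted p below 0.05. Within batch 1 a single one of them rose, Lyz2, a lysozyme (0.74, FDR 0.0124), as did C4b of the complement list (0.81, FDR 0.00956). Among 32 genes of interferon response and antigen display by class I, Cxcl10, a chemokine, passed the FDR at -0.46 and was called with a pseudocount of 0.1, and the list's median was -0.003. Within batch 1 Cxcl10 did not pass the FDR (0.062).

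Among genes of cell division and of neuronal growth, those past the FDR were all lower. Pbk, a mitotic kinase, was the only one of 35 genes of mitosis and DNA replication that fell (-0.62, FDR 0.0195), and the list's median was -0.082. The proliferation marker Mki67 (-0.27), the topoisomerase Top2a (-0.37) and Cdca3 (-0.31), a trigger of mitotic entry, passed the FDR. All 4 had values near or below 1 in both groups, where the scale understates ratios. With a pseudocount of 0.1 the changes of Pbk, Top2a and Mki67 were -1.72, -1.18 and -1.04, and all 3 were called. Within batch 1 Mki67, Top2a and Cdca3 did not pass the FDR (0.105, 0.0743 and 0.149). Mki67 was at 0.37, 0.43 and 0.48 in WY mice and at 0.16, 0.21, 0.16, 0.18 and 0.10 in WO mice, lower in every older mouse. Cdkn1c, an inhibitor of cyclin-dependent kinases, fell by 0.80 and was the 1 of 16 genes of its list to pass. Of 20 genes of neuronal development limma called 0, against 11 lower at an unadjusted p below 0.05, and 3 passed the FDR, all lower, the tubulin Tubb2b (-0.40), Nrep (-0.44) and the actin regulator Marcks (-0.56). Within batch 1 Nrep passed it (FDR 0.0255), while Tubb2b (FDR 0.0765) and Marcks (FDR 0.148) did not. Pbk was lost without WO3, WO5, WY2 or WY3 (changes from -1.72 to -0.56 over all settings) and was not called within batch 1 (-0.57, FDR 0.0619). Among the 8 fits Cdkn1c was kept in that without WO4 alone (from -0.95 to -0.73). Extracellular proteases gave 2 of 13 genes that fell, Klk6 and Plat (-0.67), the tissue plasminogen activator. The remaining genes that fell belonged to no list: Igsf1 (-0.78), a membrane protein, Ddah2 (-0.65), of the family that breaks down methylated arginines, and Plekha1 (-0.60), a phosphoinositide-binding adaptor. The call of Igsf1 (FDR 0.0492) was kept in 1 of the 8 fits, that without WO4, while Ddah2 was lost without WY1 or WY3, Plekha1 without WO3 or WY1 and Plat without WY3.

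The 9 genes that rose were of several kinds, and 4 of them, 9330199G10Rik, Slc9b2, Bdkrb2 and Ankrd60, were in no list. Gabra2 (chr5:70957597-71095849), the alpha 2 subunit of GABA-A receptors, was at 4.13, 4.48 and 4.39 in WY mice. It was at 5.14, 5.37, 5.15, 5.42 and 5.14 in WO mice, a change of 0.91 (SE 0.10, FDR 0.0115). All older mice were above all young ones, and WY1 was lowest. The 15 other measured subunits did not pass the FDR, among them Gabra3 (0.05). The median over all 16 was 0.053, and limma put 3, with Gabra2 among them, higher and 1 lower at an unadjusted p below 0.05. Abca8a (chr11:110025634-110095978), an ABC transporter of lipids, was at 1.31, 1.19 and 1.27 in young mice. At 2.69, 2.64, 2.80, 2.18 and 2.10 in older mice it changed by 1.22 (FDR 0.0179), and the 190-day mice were higher than the 294-day mice. The other 11 of 12 ABCA transporters did not pass the FDR, with Abca2, abundant in oligodendrocytes, at -0.01.

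The long intergenic RNA 9330199G10Rik was at 0.29, 0.41 and 0.36 in WY mice and at 1.40, 1.38, 1.33, 0.86 and 0.98 in WO mice, a change of 0.84 (FDR 0.0303). Slc9b2, a sodium-proton exchanger, was at 1.82, 1.49 and 1.51 in WY mice and at 2.58, 2.33, 2.36, 2.44 and 2.20 in WO mice, a change of 0.77 (FDR 0.0167). In both the groups stood apart. Fmo2, a flavin monooxygenase counted here with meningeal fibroblasts, rose by 0.71, the bradykinin receptor Bdkrb2 by 0.65 and Ankrd60, an ankyrin repeat gene, by 0.64. Among the 8 fits the call of Gabra2 was lost in that without WY3 (changes from 0.81 to 0.98). Abca8a was not called without WO1, WO2 or any young mouse (from 1.14 to 1.65), Slc9b2 not without WO2, WO3, WY2 or WY3 (from 0.71 to 1.01), and 9330199G10Rik (from 0.79 to 1.86) and Bdkrb2 (from 0.61 to 1.04) were lost without any mouse other than WO4 or WO5. Of the 8 fits Fmo2 was kept only in that without WO5 (from 0.64 to 1.66) and Ankrd60 in none of the 8 fits (from 0.57 to 1.56).

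The largest rise was that of Mir8103 (chr11:97063768-97063874), a microRNA gene within Osbpl7 on the same strand. It was at 0.58, 0.58 and 0.58 in WY mice and at 3.91, 4.28, 4.32, 3.61 and 3.43 in WO mice, a difference of 3.33 (FDR 0.000968). The value 0.58 was shared by WY1, WY2, WY3, MY1, MO1 and MO2 and was the lowest of this gene, so the difference depends on that floor and no fold is given. It was not called with all 4 groups in 1 fit. MY2 and MY3, also 50 days old, were at 4.10 and 4.22, within the range of WO mice. Osbpl7 itself, an oxysterol-binding protein, was at 3.77, 3.64 and 3.68 in WY mice and at 4.10, 3.94, 3.82, 3.94 and 4.002 in WO mice, a change of 0.27 (FDR 0.105). The libraries were made from messenger RNA, so reads over this locus do not measure the mature microRNA. Its mature sequence from RefSeq (GRCm38.p6, chr11:97063829-97063849, plus strand) is shown as the identity of the gene with the largest difference, with the seed, bases 2 to 8, in capitals.
mmu-miR-8103: uCUCCUGUucucuguucuccc

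Of the 46 called genes 43 were protein coding, and the others were 9330199G10Rik, 9630013A20Rik and Mir8103. Over 50 gene lists with 1032 measured genes, 16 lists held a gene that fell, 6 a gene that rose and 29 no called gene, and 39 of the 46 were in at least 1 list. Since members and lists were chosen with earlier results of these data known, the counts in this paragraph follow that choice and test nothing. Of the 37 that fell 21 were in the lists of the oligodendrocyte lineage, where limma found 0 genes that rose, against 2 higher at an unadjusted p below 0.05. These lists are structural myelin (20 measured genes), other mature genes (30), sphingolipid synthesis (21), precursors (20), newly formed oligodendrocytes (22) and transcription factors (18). The study's own 35 oligodendrocyte markers had 7 that fell, 10 past the FDR, among them the phospholipase Pla2g4a (-0.47), and a median of -0.308. The 71 neuron markers of its supplementary table, 1 fewer than its figure legend counts, had 0 past the FDR (limma), 12 at an unadjusted p below 0.05 and a median of 0.049. For its 5 microglia markers these were 0, 0 and -0.114, for its 5 motor neuron markers 0, 1 and 0.095, and its 60 astrocyte markers had 1 that fell, Aqp4, and a median of -0.037.

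**Figure D3:**
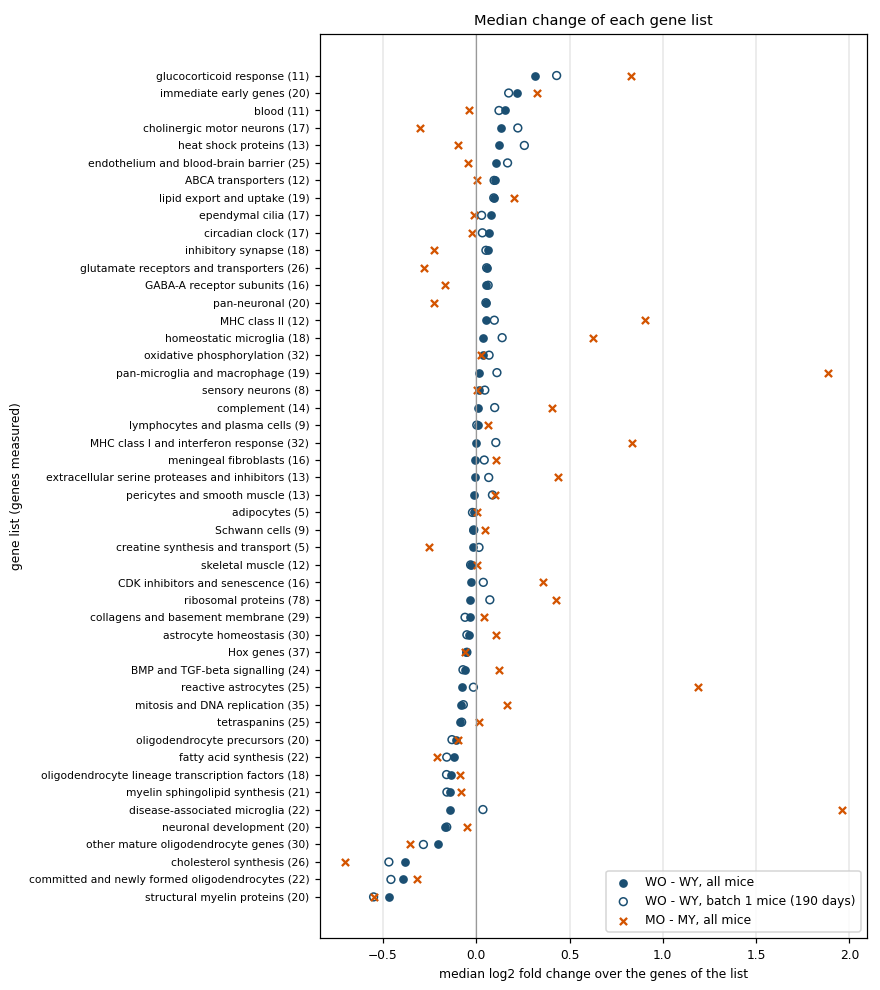
For each gene list of at least 5 measured genes, points give the median change on the log2(1 + FPKM) scale of WO minus WY with all mice, of WO minus WY within batch 1 and of MO minus MY. Myelin, newly formed oligodendrocytes and cholesterol synthesis lie lowest in WO minus WY, and the pan-microglial and disease-associated lists, at 0.016 and -0.141 there, lie above 1 in MO minus MY.

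In lists of motor neurons, of neurons in general and of the endothelium limma called 0 genes. The 17 genes of cholinergic motor neurons had a median of 0.133 and 5 genes at an unadjusted p below 0.05, and the defining markers Chat, which makes acetylcholine, Slc18a3, its vesicle transporter, and Slc5a7, the choline transporter, were at 0.44, 0.33 and 0.36 (FDR 0.204, 0.184 and 0.422). Chat was at 3.08, 3.72 and 3.72 in WY mice and at 4.04, 3.85, 3.92, 3.96 and 3.98 in WO mice, and WY1 was the low one of the young group. Without WY1 the changes of Chat, Slc18a3 and Slc5a7 were 0.23, 0.24 and 0.10. The 20 pan-neuronal genes had a median of 0.053 and the 25 endothelial genes 0.108, with 1 and 4 genes at an unadjusted p below 0.05 and 0 past the FDR. Lists related to stress held 0 genes called by limma with all mice. All 11 genes of the glucocorticoid response had a higher mean in WO mice, under each scaling too, with a median of 0.316 (0.431 at 190 days and 0.022 at 294 days), 2 genes at an unadjusted p below 0.05 and 0 past the FDR. Sgk1, a kinase induced by glucocorticoids, was at 5.99, 4.86 and 4.86 in WY mice and at 7.47, 6.62, 6.997, 6.49 and 5.30 in WO mice (FDR 0.249), with overlap. It was called with the replicate block (1.79, FDR 0.0327), where WO4 and WO5 had no WY mouse of their number. With batch 1 mice only and no block, the change was 1.79 as well, and it did not pass the FDR (0.0977). The immediate early list had a median of 0.219 and 1 gene past the FDR, the transcription factor Fosb (0.43), which was called with a pseudocount of 0.1. Fosb did not pass within batch 1 (FDR 0.12) or with batch as a term (FDR 0.0723). Among 11 blood genes 0 passed the FDR and 1 had an unadjusted p below 0.05. The mean over these genes was 0.84, 0.93 and 0.89 in WY mice and 1.28, 1.77, 0.995, 1.23 and 1.21 in WO mice, with every older mouse above every young one. S100a8 of neutrophils was at 0.06, 0.68 and 0.69 in WY mice and at 2.39, 4.19, 1.56, 1.95 and 1.68 in WO mice. Hba-a1 of red cells was at 5.999, 5.92 and 6.13 in WY and at 6.56, 5.95, 5.90, 6.55 and 6.28 in WO mice. WO2 stood highest for S100a8, and the defining blood marker Hbb-bt was not in the table.

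The other families and cell types of the lists are given by their counts. Of 25 tetraspanins 2 fell, Tspan2 and Cd9, and Tspan15 (-0.42) passed the FDR alone, with a median of -0.089. Past the FDR alone were also Col12a1 (-0.31), a fibril-associated collagen, in a list of 29 with a median of -0.035 where Nid1, a basement membrane linker, was called within batch 1 (-1.03), and Pmp22 (-0.26), a protein of peripheral myelin, among 9 Schwann cell genes with a median of -0.016. Hoxb13 (-0.33), a homeobox gene of the tail end of the cord, was the single one of 37 Hox genes to pass with all mice, and their median was -0.053. It was called with a pseudocount of 0.1 (-1.46), and within batch 1 Hoxc12 (-1.38) and Hoxd10 (-0.79) were called. Hoxc12 had the same value, 0.06, in WO1 to WO3 and was at 1.39 in WO4, within the range of the young mice. In the lists below limma found 0 genes past the FDR. The 78 genes of ribosomal proteins had a median of -0.034 with 2 genes at an unadjusted p below 0.05, and the 32 of oxidative phosphorylation 0.037 with 1. For 13 heat shock genes these were 0.123 and 3, for 17 of the circadian clock 0.066 and 3, for 14 of complement 0.011 and 2, and for 12 of class II antigen display 0.05 and 0.

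Most genes past the FDR changed by less than the fold threshold. Of these 158 genes, 125 were lower, with changes from -0.58 to -0.205, and 33 were higher, from 0.212 to 0.57. The 5 with the highest mean were Gfap, Cnp and Mag, given above, and Lamp1 (-0.20), a protein of the lysosomal membrane, and Ptma (-0.33), the nuclear protein prothymosin alpha. Lamp1 was at 8.65, 8.63 and 8.60 in WY mice and at 8.44, 8.40, 8.42, 8.44 and 8.40 in WO mice, a small difference that exceeded the spread in both groups. Within batch 1 Lamp1 (FDR 0.13) and Ptma (FDR 0.119) did not pass the FDR. Nor did Aspa (0.134), Elovl1 (0.0655), Tspan15 (0.0603), Col12a1 (0.0747), Pmp22 (0.126) and Hoxb13 (0.0846), named above.

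The 2 older ages were compared through their distance from the young mice. Over the 46 called genes the median size of the change was 0.765 at 190 days and 0.648 at 294 days, and 10 of the 46 were further from the young mean at 294 days. The 46 were chosen for their change in these same mice, most of the WO mice being 190 days old. Their sizes therefore describe the ages and do not test a difference between them. For structural myelin the median change was -0.55 at 190 days and -0.347 at 294 days, for newly formed oligodendrocytes -0.457 and -0.295, and for cholesterol synthesis -0.468 and -0.234. Since the 294-day mice made up batch 2 of the WO mice and the young mice were all of batch 1, these differences cannot be told apart from batch.

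The mutant mice gave a comparison of ages in animals that share none with WY and WO, though the older ones were also at the end stage of disease. Between MY and MO mice 747 genes rose (4.11% of genes tested) and 143 fell (0.787%). Of the 46 genes, 32 had the same sign there, against 44.7% of all genes. Called in both in the same direction were 12, of which 11 fell and 1, Abca8a, rose. The number was 2 without WY3, 4 without WY1, 5 without WY2, 6 without WO1, 7 without WO2, MY1 or MY2, and 21 without WO4. It was 40 of the 73 genes called with batch 1 mice only, 43 of the 80 with batch as a term and 39 of the 63 with the replicate block. Among the lower ones were Hmgcs1 (-1.51 in the mutant mice), Ugt8a (-1.53), Mal (-0.99), Mog (-0.93), Gpr17 (-0.74) and Tspan2 (-0.69). The cholesterol list had 14 genes that fell in the mutant mice, with a median of -0.704, and the structural myelin list 6, with a median of -0.548. Called in opposite directions were 3 genes, Fcrls, Cd44 and Cd9, which fell in wild-type and rose by 2.20, 1.19 and 1.16 in mutant mice.

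Whether age acted differently in the genotypes was tested directly as an interaction over 16 mice, which was called for 1020 genes (5.61%). Among the 46 it was called for 19 and not for 27. The 46 were chosen for the wild-type change that the interaction subtracts, so the choice favours interactions of the opposite sign, and their direction is described here and not tested. In 15 of the 19 the wild-type fall was absent, smaller or reversed in mutant mice, as for Fcrls (interaction 3.11, FDR 6.43e-05), Aqp4 (1.09, FDR 0.000265) and Rab7b (1.15, FDR 0.00194). The other 4 were the rises of Gabra2 (-1.32, FDR 0.000267), Ankrd60, Mir8103 and Slc9b2, which mutant mice did not show. Gabra2 had a mean of 5.57 in MY mice, above the WO mean of 5.24, and 5.16 in MO mice. For Gabra2, Ankrd60 and Mir8103 the means already differed at 50 days, so their interactions include a difference between the young groups. The WY means were 4.33, 0.375 and 0.58, and the MY means 5.57, 0.82 and 2.97. For Mir8103, MY1 was at the floor given above. Slc9b2 was at 1.61 in WY and 1.52 in MY mice. Gfap, outside the 46, had an interaction of 1.80 (FDR 2.04e-05), from -0.54 in wild-type to 1.26 in mutant mice. In myelin, the interaction of Cldn11 was 0.48 (FDR 0.0622), of Mal -0.15 (FDR 0.661) and of Ugt8a -0.67 (FDR 0.221), and these did not pass.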

How the data were processed

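RNA of 16 male mouse spinal cords was sequenced, 1 library per mouse, and 8 mice (3 WY, 5 WO) were the subject here. The log2(1 + FPKM) values were made and deposited by the authors, who aligned reads to mm10 with TopHat, computed FPKM with Cufflinks, removed genes at 0 in at least 8 mice and corrected for library batch with ComBat. The covariates of that correction are not stated. Depth per gene is unknown, so precision rests on the spread between mice.

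limma 3.58.1 in R 4.3.3 (lmFit and eBayes, two-sided) was fitted on all 18167 genes for WY against WO, for MY against MO, and for the interaction of age and genotype on 16 mice. Calls needed a Benjamini-Hochberg FDR of at most 0.05 and a 1.5-fold change. The procedure was tested on simulated data. Python 3.11.15 with pandas 2.3.3, NumPy 2.4.6 and matplotlib 3.10.9 made lists and figures, and GENCODE M21 on GRCm38 gave positions for 17419 symbols.

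The members and lists were chosen with earlier results of these data known. Any called gene may be named, with values per mouse for the 5 largest increases, the 10 largest decreases and up to 3 called members of a list. Of each list the members past the FDR, up to 4 of the highest level and, for cell types, the first 3 markers may be named, as may the 5 most abundant genes past the FDR alone. Genes called only within batch 1, the genes at the ends of a list's range, and Osbpl7, Srebf2, Sgk1, S100a8 and C1qb were chosen after their values were seen.

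Alternatives were batch 1 mice only, batch as a term, genes with a mean of at least 1, a pseudocount of 0.1, quantile normalization, all 4 groups in 1 fit, treat against 1.2-fold, an intensity trend, the replicate number as a block, no small RNA genes, and each mouse left out in turn. Values before batch correction, counts of reads and the transgene itself were left out, since the table does not hold them.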

Additional observations from a re-analysis of the deposited data

Results flagged for a closer look

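Among the 5 WO mice, 1 mouse stood far from the other 4, by the gap to its nearest neighbour over the whole range (above 0.71), in 9 of 152 genes and marker lists examined. Chance gives about 1 in 20 such groups, but part of the genes were named after their values were seen, so the number is not a test against chance. Mbp was at 5.36 in WO4, far below the others, and Hoxc12 at 1.39 in WO4, far above them. WO1 was lowest for the desaturase Degs1 (6.27), the proteoglycan Cspg5 (4.66) and the mean of the precursor markers (2.658), and highest for Glul (9.65). WO2 was highest for Cd9 (5.91) and lowest for Gamt (4.07), and WO3 was lowest for Plekha1 (4.82).

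The interaction test called 1020 of all genes (5.61%), and by it the age effect differed between genotypes in 19 of the 46 called genes. These genes were chosen for the wild-type change that the test subtracts, which favours differences of the opposite sign, as all 19 were. The effect in mutant mice minus that in wild-type mice was 3.11 for Fcrls, 1.86 for Cd44, 1.77 for Cd9, 1.29 for Pbk and 1.23 for Plat. It was 1.17 for Hebp1, 1.15 for Rab7b, 1.09 for Aqp4, 0.99 for 9630013A20Rik, 0.93 for Klk6 and 0.90 for Gpx8. Smaller differences were found for Marcksl1 (0.87), Rras2 (0.68), Ddah2 (0.63) and Igsf1 (0.63). The sign was negative for Mir8103 (-4.51), Gabra2 (-1.32), Ankrd60 (-1.09) and Slc9b2 (-0.90). For Mir8103, Gabra2 and Ankrd60 the MY mean was already above the WY mean, which enters these differences. The MO mice carried the disease as well as the age, and these cannot be told apart.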

How the results depend on the processing

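All 46 called genes kept their direction in every setting that tested them. Their groups did not overlap, so fits on fewer of these mice or with another pseudocount could not have reversed it. The kept direction is therefore no sign of stability there. The number called, 46 (9 higher, 37 lower), was 73 with batch 1 mice only (60 lower), 80 with batch as a term (20 higher, 60 lower), 63 with the replicate block (17 higher), 60 with a pseudocount of 0.1 (17 higher) and 3 with treat (1 higher, 2 lower). Of the 46, 39, 42, 33, 36 and 3 were called there. The number past the FDR alone, 204, was 68 with the replicate block and 85 with a pseudocount of 0.1. The calls shared with MY against MO, 12, were 40 with batch 1 mice only, 43 with batch as a term, 39 with the replicate block and 0 with treat, for which limma had 201 genes at an unadjusted p below 0.05 in WY against WO. Batch as a term and the replicate block take the WO minus WY change from batch 1 mice, since WO4 and WO5 have no WY mouse of their batch or number. The median change over all genes was 0.0066 in each of these and with batch 1 mice only, so they repeat 1 contrast. The interaction calls, 1020, were 1548 with a pseudocount of 0.1 and 608 with treat. Other settings gave counts within 1.5 times of these. Without 1 mouse in turn, the number called was 7 to 64, higher 2 to 9, lower 5 to 57, past the FDR alone 9 to 182, shared calls 2 to 21 and interaction calls 808 to 1292. Whether the replicate numbers pair the mice is not stated and was not tested. Deviations of WY and WO mice with the same number correlated across genes at 0.319, -0.023 and 0.179. With different numbers the correlations ranged from -0.313 to 0.206. Fewer mice were fitted in batch 1 and without 1 mouse, and the cause of the other shifts was not tested. Depth per gene is unknown, so what it limits could not be measured.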
